A study of Mus musculus with 2 samples.

Results

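The regions described here are the narrow autosomal peaks with the highest fold enrichment in 1 chromatin immunoprecipitation sequencing (ChIP-seq) library, called library 1. A peak was a member when it lay on chromosomes 1 to 19, was under 1000 bp wide and had a fold enrichment of at least 7 over background in the authors' deposited peak list. This gave 4715 members of the 572800 autosomal library 1 peaks of that width (0.823%), and of 585072 peaks in the series. The other 568085 narrow autosomal peaks are the comparison throughout. The members were selected on their fold, so fold, read depth and the caller's q-value describe them and test nothing. Gene context, chromosomal place and spacing did not enter the choice directly. They are not fully independent of it, because the background that divides the fold differed from place to place.

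Both libraries of the series came from snap-frozen mouse embryo heads at midgestation (E10.5), immunoprecipitated with the antibody sc-9996 against green fluorescent protein (GFP). The series concerns the histone variant H3.2 and the eye, but the labels name no genotype, no GFP-carrying protein, no sex and no litter. They give both libraries the same description and name no control. The members come from 1 library, so no value below has a replicate error, and intervals are 95% exact intervals (Clopper-Pearson for shares, Poisson for counts) that cover counting error only. Reads carried no molecular identifiers to tell copies of the same molecule apart, so they cannot be taken as independent molecules.

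As background, ChIP-seq recovers DNA that is bound, directly or through chromatin, by the protein an antibody recognises, and a peak is a place where recovered fragments pile up above a local background. Histone H3.2 is a core nucleosome component deposited when DNA is replicated, and it therefore packages much of the genome rather than a set of short sites. Sequence-specific factors and many chromatin marks of active genes concentrate at promoters, while some families, such as the receptors of smell and pheromone sensing and the hair proteins that cross-link keratin, are encoded in long tandem arrays.

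Of the 4539 members on chromosomes with promoter windows, 55 overlapped such a window, and the sequences of 6 of these windows show what lay under the summits. The windows are 250 bases before an annotated start, read from the RefSeq promoter table of GRCm38.p6 (mm10). Capitals mark the 21 bases centred on the member's summit, as far as they fall in the window. Gtsf1 and Mitf are shown for a start-site summit at a germ-cell gene and for an eye regulator, chosen after their values were seen. The other 4 had the highest folds among members whose summit lay at least 10 bases inside the upstream window.
Gtsf1: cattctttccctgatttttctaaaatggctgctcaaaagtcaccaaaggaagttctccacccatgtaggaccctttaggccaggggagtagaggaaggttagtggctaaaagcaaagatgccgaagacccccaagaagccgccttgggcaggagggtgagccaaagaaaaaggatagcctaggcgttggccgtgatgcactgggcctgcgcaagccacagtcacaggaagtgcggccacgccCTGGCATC
Mitf: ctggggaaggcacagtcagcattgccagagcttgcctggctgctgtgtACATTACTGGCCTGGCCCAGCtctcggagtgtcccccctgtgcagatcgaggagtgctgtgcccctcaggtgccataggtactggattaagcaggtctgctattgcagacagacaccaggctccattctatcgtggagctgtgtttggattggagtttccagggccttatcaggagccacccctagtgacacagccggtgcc
Zfp936: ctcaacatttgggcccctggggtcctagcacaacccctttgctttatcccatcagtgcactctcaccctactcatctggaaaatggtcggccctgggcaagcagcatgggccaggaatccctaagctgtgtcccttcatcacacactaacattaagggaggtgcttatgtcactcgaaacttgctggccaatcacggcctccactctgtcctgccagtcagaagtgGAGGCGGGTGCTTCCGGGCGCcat
Gm51594: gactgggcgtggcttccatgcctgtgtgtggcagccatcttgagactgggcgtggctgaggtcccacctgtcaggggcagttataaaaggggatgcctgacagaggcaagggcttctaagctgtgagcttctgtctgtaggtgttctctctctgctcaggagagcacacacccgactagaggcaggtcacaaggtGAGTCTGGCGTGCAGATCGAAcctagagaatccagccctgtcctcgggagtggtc
Cd55os: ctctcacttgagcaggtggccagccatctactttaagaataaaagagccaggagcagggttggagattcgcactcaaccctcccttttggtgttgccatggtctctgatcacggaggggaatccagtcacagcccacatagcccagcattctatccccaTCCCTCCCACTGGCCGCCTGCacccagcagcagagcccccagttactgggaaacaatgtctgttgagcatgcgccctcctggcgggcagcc
Gm33671: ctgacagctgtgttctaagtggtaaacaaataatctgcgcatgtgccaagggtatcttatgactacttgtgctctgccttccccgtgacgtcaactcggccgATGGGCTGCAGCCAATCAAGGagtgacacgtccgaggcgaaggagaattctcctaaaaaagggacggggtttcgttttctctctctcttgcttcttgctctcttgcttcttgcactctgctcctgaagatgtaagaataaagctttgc
Gtsf1, which encodes a protein of the piRNA pathway in germ cells, lies on the minus strand (window chr15:103430428-103430677), and the summit was 2 bases after its start, at a fold of 8.89. Mitf encodes a transcription factor of the retinal pigment epithelium and melanocytes. Its plus-strand window is chr6:97929567-97929816, with the summit 192 bases before 1 of its starts at a fold of 7.002. Zfp936, a zinc finger gene (chr7:43177340-43177589, plus strand), had its summit 14 bases before the start, at a fold of 8.30. The window of the predicted gene Gm51594 (chr8:55382541-55382790, plus strand) had its summit 45 bases before the start, at 8.29. The noncoding gene Cd55os (chr1:130422574-130422823, plus strand) had it 81 bases before the start, at 8.08. For the noncoding gene Gm33671 (chr10:21216246-21216495, plus strand) the summit was 138 bases before the start, at 7.81, and the motif CCAAT lies within its capitals.

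By the rule, members have the highest folds within the width limit. Members had folds from 7.002 to 16.1 with a median of 7.27, so most sat just above the threshold, and 654 of them (13.9%) reached a fold of 8 and 22 reached 10. Fold and p-value together gave back the number of overlapping extended reads at each summit, here called the pileup. It ran from 25 to 107 reads with a median of 26, against a median of 15 for the other narrow peaks. Of the members, 4333 (91.9%) had been scored against the lowest, genome-wide background of 2.71 reads, compared with 65.8% of the other peaks. At that background 25 reads give a fold of 7.002, which 1655 members shared exactly, and 24 reads give 6.73, which 2658 peaks just outside shared. The highest fold outside was 6.98, in 3 peaks of 29 reads over a background of 3.30. Members were wider than the others, with a median of 331 bp against 200 bp. Other narrow peaks reached a pileup of 197, in places where the background was higher.

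Members lay inside genes less often than the other narrow peaks. The summit was inside a protein-coding gene for 2123 members, 45.0% (43.6 to 46.5), against 54.6% (54.4 to 54.7) of the others. Protein-coding genes cover 40.9% of the bases between the outermost autosomal peaks, so both shares were above that of the bases. Between annotated genes of any kind lay 44.9% of members and 35.2% of the others. A noncoding or other annotated gene held 9.20% and 8.24%. Far from any gene, outside genes and over 100 kb from the nearest protein-coding gene end, were 1001 members, 21.2% (20.1 to 22.4), against 12.4% of the others. When runs of peaks within 10 kb were reduced to 1 peak each, among members and others alike, the shares inside genes were 44.6% and 34.98%, the other way round.

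Gene ends also held a smaller share of the members. Within 1 kb of either end of a protein-coding gene lay 171 members, 3.63% (3.11 to 4.20), against 6.34% (6.28 to 6.41) of the others and 3.10% of the bases. Strand was known for 16457 of the 20665 protein-coding genes. Of all members 1.29%, and of all others 2.76%, lay within 1 kb of the start of such a gene, and 2.01% and 2.54% within 1 kb of its far end. As the remaining genes were left out, these shares are lower limits. The median distance of a summit to the nearest protein-coding gene end was 30.5 kb for members and 20.5 kb for others. The median number of protein-coding genes within 500 kb was 7 and 10, and 7.61% of members had none there, compared with 3.17% of others. With 1 peak per run, 3.51% of members and 3.04% of others were at gene ends.

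This decline ran through the whole range of fold. The share inside genes was 55.3% for folds under 3, 54.6% for 4 to 5, 53.9% for 5 to 6 and 50.4% for 6 to 7. Among the members it was 46.0% for folds of 7 to 8 and 38.7% (34.9 to 42.5) for 8 and over. The share at gene ends fell from 8.09% for folds under 3 to 3.06% for 8 and over, which is near the share of bases.

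**Figure D1:**
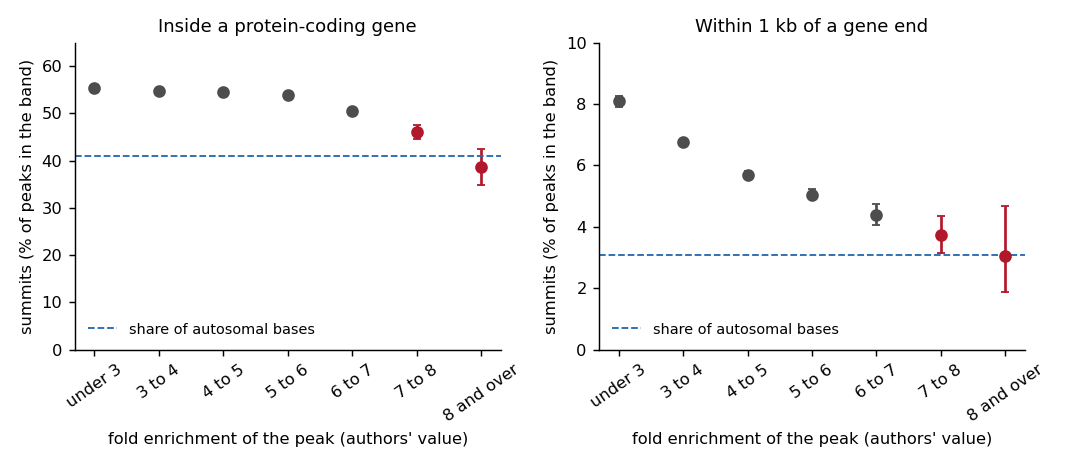
Share of narrow autosomal library 1 peaks with the summit inside a protein-coding gene (left) and within 1 kb of a gene end (right), by fold band, with 95% exact intervals. Red points are the members, at 46.0% and 38.7% inside genes, and the dashed line is the share of autosomal bases, 40.9% and 3.10%.

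Members also stood in sparser surroundings. A member had a median of 22 narrow peaks within 50 kb of its summit (quartiles 10 and 43), and another narrow peak had 41 (quartiles 21 and 62). With 1 peak per run of either kind the medians were 22 and 9, the other way round. The nearest narrow peak was 1728 bp away for members and 984 bp for the others, as medians. The 19 autosomes were next divided into 2413 windows of 1 Mb and split into 10 equal groups by their number of narrow peaks. In the sparsest group there were 1.02 members (0.893 to 1.15) and 51.5 other peaks per window. In the densest group there were 2.65 members (2.45 to 2.86) and 647 other peaks. The number of members thus rose with the number of peaks, but far less steeply. Their share of narrow peaks went from 1.94% and 2.02% in the 2 sparsest groups to 0.408% in the densest. The number of peaks both orders the windows and divides the share. Limited to peaks scored against the genome-wide background, the share went from 2.44% to 0.619%. That background applied to 74.7% of narrow peaks in the sparsest group and 61.5% in the densest. Surroundings were thus partly tied to the fold that chose the members.

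**Figure D2:**
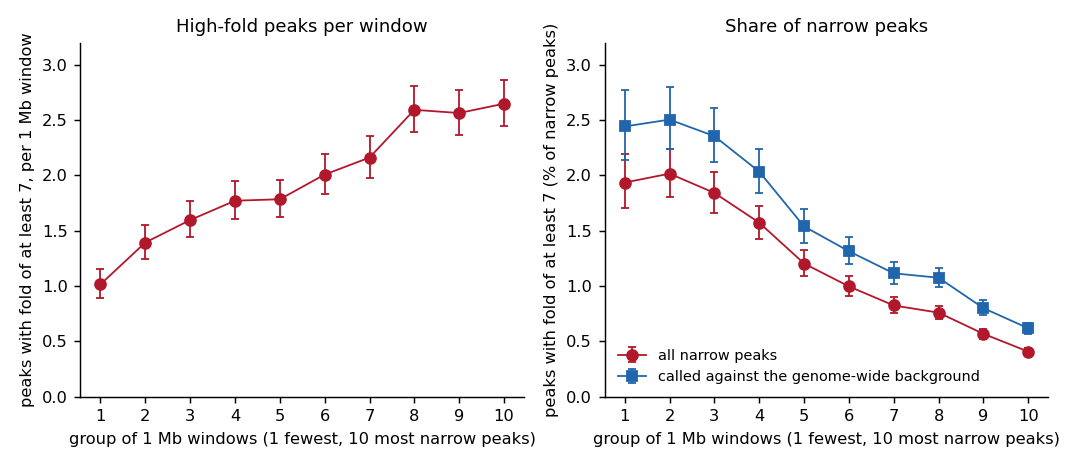
Members per 1 Mb window (left, exact Poisson intervals) and members as a share of narrow peaks (right, Clopper-Pearson intervals) in 10 groups of windows ordered by their number of narrow peaks. Members per window rose from 1.02 to 2.65, while their share of peaks fell to 0.408%, or to 0.619% among peaks scored against the genome-wide background.

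Gene context and surroundings overlapped in these data. With the windows in 5 groups from sparse to dense, 16.8% (13.9 to 20.1) of members and 21.9% of others in group 1 lay inside a gene. The shares were 24.9% and 31.8% in group 2 and 40.8% and 49.1% in group 3. In group 4 they were 56.8% and 56.6%, and in group 5 they were 63.4% and 62.8%. The lower share inside genes was thus present in the 3 sparser groups, and the members' interval held the others' value in the 2 denser ones. At gene ends the members' share was the lower in all 5 groups, from 0.172% against 1.67% in group 1 to 5.64% (4.43 to 7.06) against 7.87% in group 5. In group 4, at 5.15% (3.94 to 6.59) against 5.93%, the interval held the others' value.

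Member density varied among the chromosomes. Members numbered 1.96 per Mb in all, from 1.33 (1.11 to 1.57) on chromosome 15 to 2.33 (2.06 to 2.62) on chromosome 11. The others ran from 166 per Mb on chromosome 3 to 331 on chromosome 11, so the highest was 1.75 times the lowest for members and 1.99 times for others. Against others with a fold of at least 6 only this order turned round (1.75 and 1.45), as it did for a pileup of at least 25 in place of fold (2.013 and 1.996), both alternatives chosen after the data were seen, and with 1 peak per run (1.68 and 1.49). The members' share of narrow peaks was highest on chromosome 3 (1.22%) and lowest on chromosome 15 (0.536%). Over the 19 chromosomes, the density of other peaks went with that of protein-coding genes (Pearson r 0.81, Spearman rho 0.83), as a description of 1 library. For the density of members r was 0.26 (rho 0.25) with that of other peaks and 0.14 (rho 0.15) with that of genes. The value with other peaks depended on the threshold: r was 0.81 for a fold of at least 6, 0.46 for a pileup of at least 25 and -0.000186 for a fold of at least 8. Along a chromosome, the share of members went from 1.04% in the first of 10 equal stretches of its span to 0.638% in the last. The last 5 Mb held 4.39% of members against 5.83% of others, or 4.41% against 3.03% with 1 peak per run. The first 5 Mb held 3.90% (3.37 to 4.50) of members against 3.37% of others, which the interval held.

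**Figure D3:**
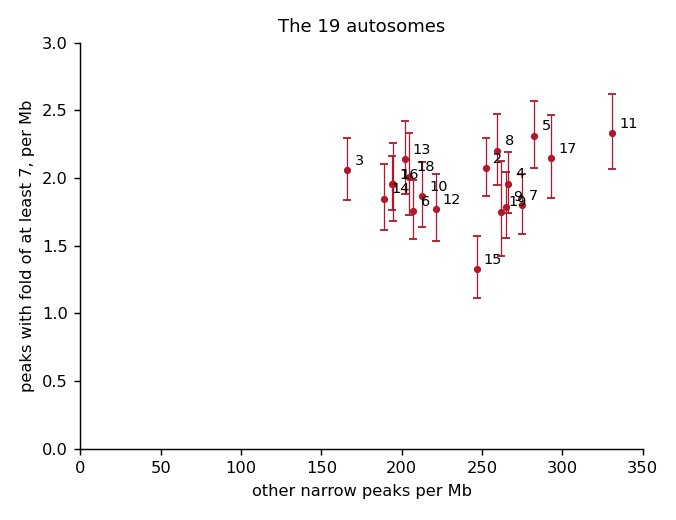
Members per Mb (vertical, with 95% Poisson intervals) against other narrow peaks per Mb (horizontal) for the 19 autosomes, each marked by its number. Chromosome 15 is the lowest for members at 1.33 per Mb, and chromosomes 3 and 11 have similar member densities although their other peaks number 166 and 331 per Mb.

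Few members had another member close by, but the share was slightly above that of the others. Another member lay within 10 kb for 254 members, 5.39% (4.76 to 6.07), and a member lay within 10 kb of 4.59% (4.54 to 4.64) of the others. The next narrow peak along the chromosome was a member for 71 members, 1.51% (1.18 to 1.90), against 0.818% for the others. In the 2 densest of the 5 groups of windows the members' share within 10 kb was the higher, at 6.98% (5.57 to 8.61) against 4.79% and 7.47% (6.08 to 9.06) against 5.11%. In the sparsest group it was the lower, at 1.37% (0.595 to 2.69) against 2.70%. The median distance between successive members was 158.7 kb. Set beside other peaks with a fold of at least 6 only, an alternative chosen after the data were seen, the ratio of the members' share to the others' was 0.995 in place of 1.17.

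In all, 121 runs, in which members followed within 10 kb, held 2 or more members, and 113 of them were pairs. Of the 4 runs of 4, the one with the highest pileups was chr8:55370124-55383248, across the predicted genes Gm51573, Gm51592, Gm51593 and Gm51594. Its members had 47 to 107 reads, the highest pileup of any member, over backgrounds of up to 10.9. A second run of 4 nearby, chr8:55498483-55516894, covered Gm51598 and Gm51599 with 25 to 35 reads. The run at chr2:83960675-83973600 spanned Gm13693, Gm13695 and Gm13696 with 37 to 50 reads over backgrounds of 4.20 to 5.88. Runs of 3 lay at Krtap1-4, Krtap1-3 and Krtap9-3 on chromosome 11, in the vesicle-tethering gene Uso1 and the fatty acid synthesis gene Acacb on chromosome 5, and in Vwa8 on chromosome 14.

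Some promoter windows of these chromosome 8 genes are near-identical copies of that of Gm51594 above, and 1 of them is shown here. Capitals mark the bases at which it differs.
Gm51597: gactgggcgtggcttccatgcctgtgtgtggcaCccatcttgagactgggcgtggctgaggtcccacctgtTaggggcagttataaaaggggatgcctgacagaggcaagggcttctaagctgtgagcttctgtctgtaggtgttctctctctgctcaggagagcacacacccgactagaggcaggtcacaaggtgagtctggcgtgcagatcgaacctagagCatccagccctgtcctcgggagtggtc
This window (chr8:55494985-55495234, plus strand) differs from that of Gm51594 at 3 of 250 bases, 217, 179 and 27 bases before the start. No narrow peak overlapped it, whereas the Gm51594 window carried a member of 63 reads. The windows of Gm51591, Gm51592, Gm51595 and Gm51596 were 98.0% to 99.3% identical to that of Gm51594 over 300 bases. They carried a peak of fold 3.13, none, none and a peak of fold 4.04. Those of Gm51573, Gm51593 and Gm51598 were 35.3% to 49.4% identical. How reads matching several places were handled is not given in the sources used here, so which copy the reads came from cannot be told apart.

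Members gathered by the megabase in 2 gene-family regions. The window from 99 to 100 Mb of chromosome 11 held 22 members of 352 narrow peaks, 6.25% (3.96 to 9.31), and the window from 22 to 23 Mb of chromosome 7 held 18 of 180, 10% (6.04 to 15.3). For comparison, 424 of the 2413 windows held none, and the third in rank held 15 members of 884 peaks, on chromosome 5.

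The chromosome 11 window holds keratin genes and 23 keratin-associated protein (Krtap) genes, short genes whose products cross-link keratin in hair. There 8 of the 22 members had their summit inside a Krtap gene. They were Krtap1-4 at a fold of 8.62, Krtap9-3 at 8.08, Krtap1-3 at 7.54 and Krtap4-2 at 7.27, with Krtap3-3, Krtap3-1, Krtap4-16 and Krtap9-1 at 7.002. The keratin genes Krt28, Krt10 and Krt20 each held a member at 7.002, and 21 of the 22 had the genome-wide background. Over all keratin genes, 3 of 421 narrow peaks were members (0.713%, 0.147 to 2.07). This was near the 0.669% over all protein-coding genes, which the interval held. The highest of the window, at 8.89 and 32 reads (21.9 to 45.2), lay in the predicted gene Gm11563. The remaining members lay in other predicted genes or between genes. Krtap genes were counted by symbol, so predicted genes lying among them, such as Gm11563, are not in the count.

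The chromosome 7 window holds 22 type 1 vomeronasal receptor (Vmn1r) genes, whose products detect pheromones. None of its 18 members was inside or within 1 kb of a Vmn1r gene, and their distances ran from 4.23 to 52.0 kb with a median of 15.3 kb. These genes are short, and most other narrow peaks of the window also lay outside them. The absence therefore does not set the members apart from the other peaks there. The 18 members had folds from 7.05 to 10.2, and only 6 were scored against the genome-wide background.

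**Figure D4:**
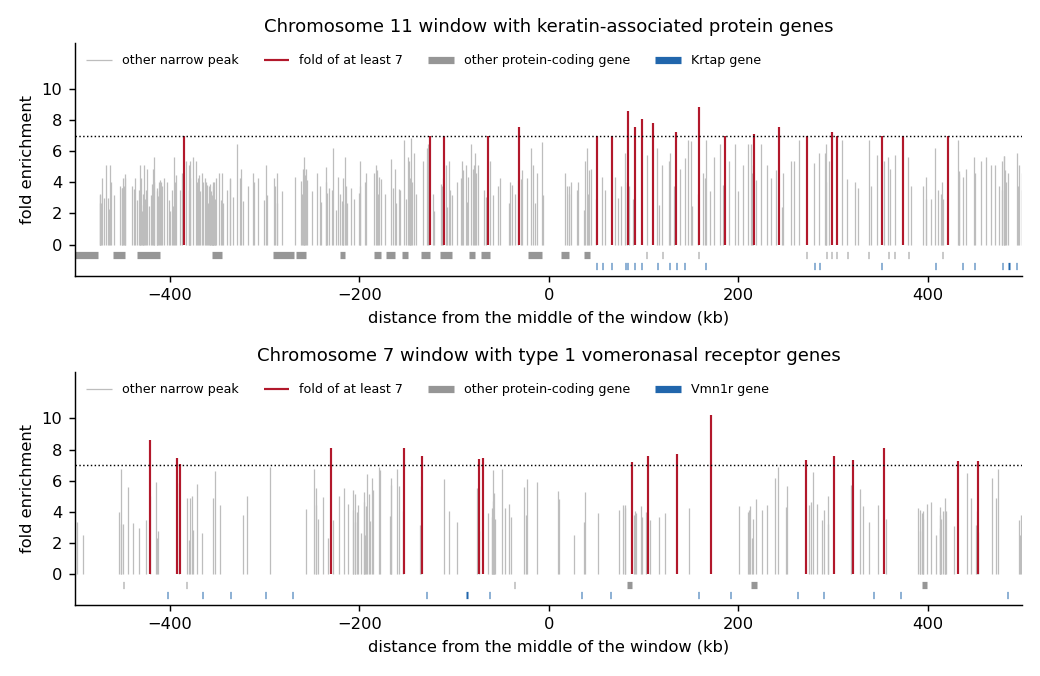
Fold of each narrow peak (vertical lines, members in red) by distance from the middle of the chromosome 11 window (top) and the chromosome 7 window (bottom), with gene spans drawn below 0. Of the 22 red lines in the upper panel 8 stand on Krtap genes. In the lower panel none of the 18 stands on a Vmn1r gene, and most other peaks there also lie outside these genes.

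Of the 20 members with the highest fold, 13 lay between genes, 6 inside protein-coding genes and 1 in a noncoding gene, and none at a gene end. Over all members, 44.9% lay between genes, 45.0% inside protein-coding genes and 3.63% at gene ends. At 3.63%, none among 20 does not set these regions apart. Folds of the 20 ran from 10.2 to 16.1, their pileups from 37 to 86 reads and their widths from 168 to 691 bp. The highest was chr17:25451757-25451964, 208 bp wide, 2.69 kb from Tekt4, a gene of the sperm tail. It had 86 reads (68.8 to 106) over a background of 4.40, and 101 narrow peaks within 50 kb, the most of the 20. Next came chr7:133489133-133489314, with a fold of 15.1 and 55 reads (41.4 to 71.6), 97.8 kb from Tex36. The third was chr5:38022921-38023408, with 14.8, lying 13.6 kb from Stx18, which encodes a syntaxin.

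The 6 inside genes began with F13a1, a coagulation factor subunit (fold 14.2, chr13:36978295-36978985). Shisa6, which modulates AMPA receptors, followed at 12.4 with 74 reads (chr11:66420882-66421325). Epha3, an ephrin receptor of axon guidance, also had 12.4 (chr16:63833434-63833836). Il15ra, a cytokine receptor subunit, had 11.3, the centrosomal gene Sdccag8 10.8 and Dpp10, a potassium channel auxiliary subunit, 10.2. For the regions in 4 of these genes, F13a1, Shisa6, Epha3 and Dpp10, there were 4 to 9 narrow peaks within 50 kb. This was below the median of 21.5 over the 20 regions. Those in Il15ra and Sdccag8 had 28 and 32, above that median.

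Over all members, chromosome 7 held 256 of 4715. These were 0.651% of its narrow peaks, against 0.823% over the autosomes. Of the 20 regions it held 7. Besides the region near Tex36 they lay 16.1 kb from the pregnancy-specific glycoprotein gene Psg26 (12.1), 62.2 kb from Spon1 (11.1), inside the imprinted noncoding gene Snhg14 (10.8), 63.0 kb from Vmn1r72 (10.6), 12.8 kb from Vmn1r155 (10.2) and 3.41 kb from Gm6902 (10.2). The other regions of the 20 were near Car13 (12.4), a carbonic anhydrase gene, Mup17 (11.8), a major urinary protein gene, Catspere2 (11.3), a gene of a sperm calcium channel, Dicer1 (11.3), which processes small RNAs and lay 42.8 kb away, and the transporter gene Flvcr2 (10.8). On chromosomes without a region among these 20, the highest members were in Mpp6 (9.69), Clpx (10.01), Eea1 (9.69), Eaf1 (9.69) and Rbfox2 (9.43), and near Tenm3 (9.16), Epc1 (9.87) and Dtx4 (9.41).

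At gene ends, where only 171 of the 4715 members lay, the highest folds were lower than these, at most 8.89. After Gm11563 and Gtsf1, at 8.89 each, came Syce1, a component of the meiotic synaptonemal complex, Krtap1-4 and Tubb2b, a tubulin of developing neurons, all at 8.62. Zfp1 had 8.35, Gm51594 8.29, Rasal2, which restrains Ras, 8.26, Gm51598 8.26 and Gm51593 8.10. The tubulin peak was 993 bp wide, close to the width limit.

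Among 20665 autosomal protein-coding genes, 1774 (8.58%) held a member in the gene body and 297 held 2 or more. Genes with a member were long, with a median of 86.0 kb against 18.7 kb for genes with narrow peaks but no member. The most members, 6, fell in Arhgap24, a GTPase regulator, among 117 narrow peaks (5.13%), and in Vwa8, among 139. Zfp982 had 4 of 18 narrow peaks (22.2%, 6.41 to 47.6). Catspere2 had 4 of 29 and Pigk, which attaches lipid anchors to proteins, 4 of 74. The long genes Fhit, Dlg2, Pde4d, Magi2 and Asic2 also had 4, of 108 to 290 narrow peaks, as did Fras1. These counts are not corrected for length, and the share of narrow peaks is the value to compare.

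Gene lists were described by the share of their narrow peaks that were members, beside 0.669% over all protein-coding genes and their 1 kb flanks. Keratin-associated protein genes stood highest, with 9 of 67 peaks (13.4%, 6.33 to 24.0) in 9 of 53 genes, of which only Krtap6-1 lay outside the chromosome 11 window. Olfactory receptor genes had 8 of 521 peaks (1.54%), with an interval that held the background and no fold above 7.54. Zinc finger genes named Zfp had 39 of 4009 (0.973%, 0.693 to 1.33), led by a second member in Zfp936 at 9.29. Vomeronasal receptor genes had 3 of 260 (1.15%, 0.239 to 3.33), an interval that held the background, in Vmn2r80, Vmn2r17 and Vmn2r27.

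Axon guidance genes had 19 of 2758 peaks (0.689%), in Epha3, Robo2, Epha6, Robo1, Ntng1, Slit3, Sema3e, Ephb2, Sema3d and Sema5a. Glutamate and GABA receptor genes had 16 of 2030 (0.788%), led by Grik1 at 8.72 and Gabrb1 at 8.62. Synaptic adhesion genes had 13 of 2091 (0.622%). Solute carrier genes had 58 of 7383 (0.786%), led by Slc13a3 at 8.89. Potassium channel genes had 9 of 2814 (0.320%, 0.146 to 0.606) and collagen genes 6 of 2004 (0.299%, 0.110 to 0.651), both with intervals below the background. Cadherins (0.412%) and calcium and sodium channels (0.409%) had intervals that held it.

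Eye genes had a share whose interval held the background. Of 48 eye and lens regulators, 3 had 4 members of 742 narrow peaks (0.539%, 0.147 to 1.37). They were Mitf with 2, at 7.54 and 7.002, Tbx5 at 7.002, and Pax2, which patterns the optic stalk, at 7.002. The same list has Pax6, Six3, Rax, Sox2, Otx2 and Foxe3, and none of these held a member. Crybg1 had the only member among 19 crystallin genes, at 7.27, which is 1 of 214 peaks (0.467%, 0.0118 to 2.58), and this interval held the background too. No member lay at neural patterning regulators (0 of 647 peaks) or endothelial genes (0 of 577), which allows shares of up to 0.464% and 0.520%, taking 3 counts as the limit. None lay at Hox genes (0 of 171), ribosomal protein genes (0 of 109) or replication-dependent histone genes (0 of 24), where the limits are 1.75%, 2.75% and 12.5%.

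**Figure D5:**
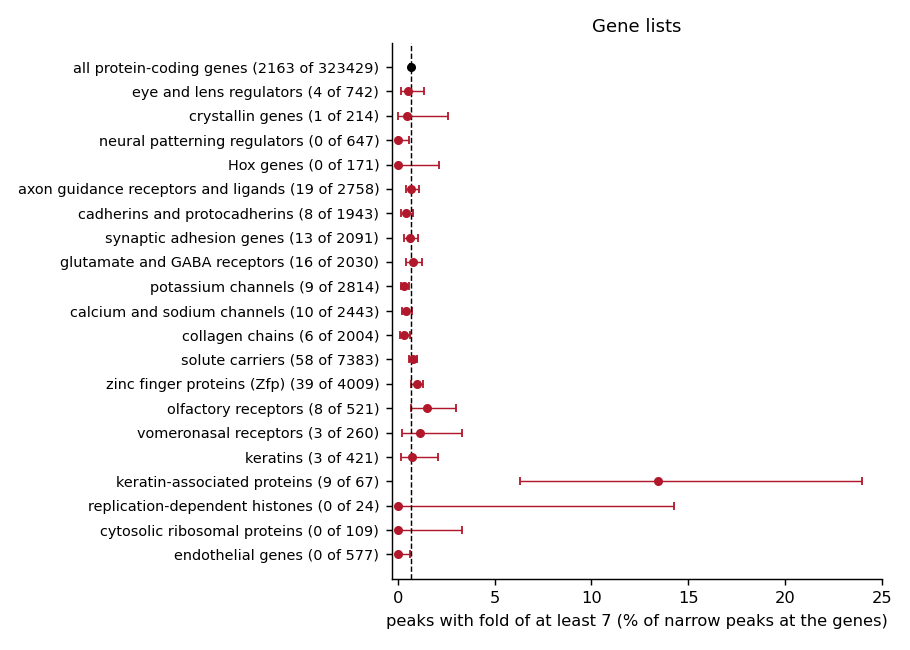
Members as a percentage of the narrow peaks in or within 1 kb of the genes of each list, with 95% exact intervals and the counts in the labels. The dashed line is the value over all protein-coding genes, 0.669%, and keratin-associated protein genes lie at 13.4%.

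Promoter windows, 250 bases before to 50 after a start, were overlapped by 55 members in 60 windows of 56 genes, out of 31396 windows in the table, which has none on chromosome 18. These were 55 of the 4539 members on the chromosomes in the table. The matching count of other narrow peaks was not made, so this count is not set beside theirs. The summit itself was in the window for 22 members. Median GC content was 52.7% in these windows, 57.7% in the 11974 windows with other narrow peaks only and 48.7% in windows with none, and the median number of CpG pairs was 7, 12 and 5. Motifs were searched on both strands over the 300 bases. The GC box GGGCGG was in 11 of the 60 windows (18.3%, 9.52 to 30.4), against 45.5% of windows with other peaks, 36.0% of all and 30.1% of those with no narrow peak, which the interval held. TATAAA was in 14 (23.3%, 13.4 to 36.0) against 7.83% and 13.6%, and 17.2% of windows with no narrow peak. The homeodomain core TAATTA was in 7 (11.7%, 4.82 to 22.6) against 2.97% and 5.27%, and 6.66% of windows with none. Both intervals lay above the value of the windows with other peaks, and both held the values of all windows and of those with no narrow peak. Of the TATAAA windows 8 and of the TAATTA windows 5 belonged to keratin, keratin-associated or neighbouring predicted genes. CCAAT (36.7% against 32.9%) and the E-box CACGTG (10% against 7.71%) had intervals that held the value of the windows with other peaks, as did the NRF1 core (3.33% against 6.77%).

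No member overlapped any of the 348 peaks of library 2, of which 118 were autosomal. A count of 0 of 4715 allows a share of up to 0.0636%, taking 3 counts as the limit, and the exact 95% interval reaches 0.0782%. Among the others, 7 of 568085 overlapped, so the members' count cannot be told apart from theirs at this number. The member closest to a library 2 summit was chr5:17377417-17377680, at a fold of 7.11 and a distance of 2.92 kb.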

How the data were processed

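Per the submitters' processing notes, bcl2fastq 2.17, Trimmomatic 0.33, Bowtie 1.1.2 and MACS2 2.1.0 were used, with builds hg38 and mm10. Their settings, any control and the handling of reads with several matches are not given in the sources used here. The deposited lists matched mm10, and coordinates count from 1. For each peak the authors deposited a score, the fold enrichment as a ratio, and −log10 p-values and −log10 q-values. Pileup and background were solved from fold and −log10 p-value (tolerance 0.002 on that scale), which gave a whole pileup for 100% of members. Read totals were not used here, so depth is given as the pileup at each summit.

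Genes came from RefSeq GRCm38.p6 (20665 protein-coding genes on the autosomes). The table lacks strand, which was known from the promoter table for 16457 of them, and exons, so exon and intron were not separated. Identity between windows came from global alignment (Biopython 1.88). Numpy 2.4.6, pandas 2.3.3, scipy 1.17.1 and matplotlib 3.10.9 were used. No test between conditions was possible with 1 library. Regions named were the 20 highest members, the highest per chromosome, the 10 highest at gene ends, the 8 largest runs, the genes with the most members, and the highest member of each of 20 gene lists. A few regions that this rule names are not reported here. The 2 gene-family windows, the promoter windows, further list members and the Gm51597 copy were chosen after their values were seen. Members, lists and motifs were chosen with earlier results of these data known. Alternatives changed the fold, the width, the background, the gene end window, the run distance and the neighbour window.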

Additional observations from a re-analysis of the deposited data

Results flagged for a closer look

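Peaks with a fold of at least 7 were also present in library 1 data that the comparisons did not use. The X chromosome held 45 such peaks under 1000 bp of 5068 (0.888%, 0.648 to 1.19), up to a fold of 10.503, and the Y chromosome 17 of 2248 (0.756%, 0.441 to 1.21). Both intervals held the autosomal 0.823%. Unplaced or unlocalised sequences held 13 of 638 (2.04%, 1.09 to 3.46), up to a fold of 11.1. Autosomal peaks of 1000 bp or wider held 159 of 3875 (4.10%, 3.50 to 4.78), up to a fold of 10.2. These are counts in data outside the comparisons, and the labels name no control samples to set beside them.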

How the results depend on the processing

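Values here are ratios of the members' to the others' share or median, or Pearson r for chromosome density. As reported they were 0.825 inside genes, 0.572 at gene ends, 1.17 for a member within 10 kb, 0.26 for chromosome density, 0.537 for peaks within 50 kb and 0.753 for the last 5 Mb. Keeping 1 peak per run of both kinds turned all 6 round, to 1.27, 1.16, 0, -0.22, 2.44 and 1.46. This alternative keeps 4582 members but only 57586 of the 568085 others, 1 for each run, and it sets the clustering value to 0 by definition. Collapsing only the members, chosen after the data were seen, gave 0.817 inside genes, 0.554 at gene ends, 0.20 for chromosome density, 0.537 for neighbours and 0.756 for the last 5 Mb, and set the share within 10 kb to 0 by definition. A fold of at least 6 gave 0.898 inside genes, 1.02 for clustering, 0.81 for chromosome density and 0.707 for neighbours. A fold of at least 8 gave 0.710, 1.67, -0.000186 and 0.450, with 0.483 at gene ends. Against others with a fold of at least 6, chosen after the data were seen, the values were 0.893 inside genes, 0.826 at gene ends, 0.995 for clustering, 0.710 for neighbours and 0.880 for the last 5 Mb. Among widths from 241 to 464 bp they were 0.798 inside genes, 0.483 at gene ends and 0.5 for neighbours. Neighbours gave 0.600 under 500 bp width, 0.564 at the genome-wide background, 0.585 for a pileup of at least 25 in place of fold, which also gave 2.15 for clustering, and 0.640 within 500 kb. Gene starts by strand gave 0.468, all annotated genes 0.861 and clustering within 2 kb 1.36. Apart from the clustering values set to 0 by definition, the cause of these changes was not tested. No paired analysis was possible because the members come from 1 library. At 25 to 27 reads a summit's Poisson interval spans 16.2 to 39.3 reads, so the order of members near the threshold is within counting error.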
